A study of Homo sapiens with 6 samples.

Results

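The genes described here are those whose symbols begin with RAB, SNX, VPS or STX followed by a digit, families named for their work in membrane trafficking. Within these families every gene was taken by its name, with antisense and intronic transcripts dropped; the families themselves were picked with earlier results of these data known. Of the 14884 genes that could be named on the array, 90 met this rule: 12 RAB, 28 SNX, 34 VPS and 16 STX genes. Of these, 85 were protein-coding. The label RAB holds only in part, because the named RAB rows were mostly regulators and effectors of RAB GTPases. The 1 GTPase-like member, RAB6D, belongs to a set of near-identical RAB6 copies. RAB5A, RAB5B, RAB5C, RAB7A and the other genes of the RAB GTPase lists were not analysed here.

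Expression was measured on Affymetrix Human Gene 2.0 ST arrays in THP-1 cells, an established line of human acute monocytic leukaemia. The cells had been transduced with the vector psi-LVRU6GP, carrying a hairpin that targets RKIP in one group (RKIP shRNA) and nothing in the other (control). Both groups were then held under selection in puromycin at 1.5 µg/mL. RKIP, the Raf kinase inhibitor protein encoded by PEBP1, is known to restrain RAF, MEK and ERK signalling, and the comparison asked which genes change when it is depleted. Each group held 3 arrays, called biological replicates in the labels. Whether they came from separate transductions or clones, and how many hairpins were used, is not stated. The p-values therefore rest on how these 6 arrays vary, and some of that variation may be technical.

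Trafficking between membranes runs through a shared sequence of steps. RAB GTPases mark each compartment and recruit effectors, sorting nexins (SNX) bind phosphoinositides and shape carriers, and the vacuolar protein sorting (VPS) genes encode complexes first found in yeast. Among these complexes, retromer retrieves receptors from endosomes, HOPS and CORVET tether endosomes and lysosomes before fusion, ESCRT sorts cargo into multivesicular bodies, and GARP tethers carriers at the Golgi. Syntaxins (STX) are the SNARE proteins that drive the fusion itself. In monocytic cells these routes serve phagocytosis, lysosomal digestion and the release of granules and cytokines.

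All values are log2 expression values unless stated, and changes are RKIP shRNA minus control with standard errors from limma, which was fitted over all 14884 genes. A gene was called, and is said to have risen or fallen, at a Benjamini-Hochberg adjusted p under 0.05. Arrays of a group correlated at 0.994 to 0.996 across genes. The target PEBP1 stood at 9.52, 9.77 and 9.75 in the control arrays and at 8.25, 8.18 and 8.24 in the RKIP shRNA arrays. The change was -1.46 (SE 0.09; adjusted p = 0.000228 by limma), which leaves 36.4% of the control level. Of 9 measured markers of the monocytic line (12 listed) 6 rose and 1 fell, while its surface marker CD14 was dim in both groups, meaning below 4.08, the median of all rows. Of 3 measured eosinophil markers (8 listed), CLC and EPX rose and PRG3 was dim in both groups. Their summed linear signal was 114 to 122 in control arrays and 4030 to 4410 in RKIP shRNA arrays. The summed signal of the monocytic markers was 8500 to 8930 and 14500 to 15500. Most of that sum comes from the bright genes MPO (mean 12.76 in control, 13.03 in RKIP shRNA) and PRTN3 (9.44 and 11.94). It therefore says little of the dimmer markers, of which CSF1R was not called and CD4 fell. Markers of T cells, B cells, epithelial and erythroid cells were few, with 8 measured, of which 1 rose and 2 fell. The part of these shifts in the results below was not tested, and in bulk RNA a change in the share of cells of a type cannot be told apart from a change in RNA per cell.

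The trafficking genes changed in both directions and by small amounts. Of the 90 members, 11 rose and 12 fell, together 25.6%, beside 20.2% of all genes tested. By direction, 12.2% of members rose beside 10.0% of all genes, and 13.3% fell beside 10.2%. These shares lie near the background. The split was 9 higher and 15 lower with quantile normalisation (37.5% higher, beside 48.3% of all called genes). With median centring it was 12 higher and 9 lower (57.1% higher, beside 59.4%). In the main fit 47.8% of called members were higher, beside 49.7% of all called genes. At an unadjusted p under 0.05, 14 members were higher and 24 lower. The share of all genes at this p was not counted, so no lean to either direction is read from these counts. No member changed 2-fold, and 4 of 90 changed at least 1.5-fold (4.44%, beside 6.27% of all genes). The median absolute change of called members was 0.43, and that of all called genes was 0.46. The median change over all members was -0.05, beside 0.02 over all genes. The groups did not overlap for 50 members (55.6%, beside 37.9% of all genes). Of these, 20 were higher in every RKIP shRNA array (22.2%, beside 19.8%) and 30 were lower (33.3%, beside 18.1%). Whether the members differ from other genes in these shares was not tested.

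**Figure D1:**
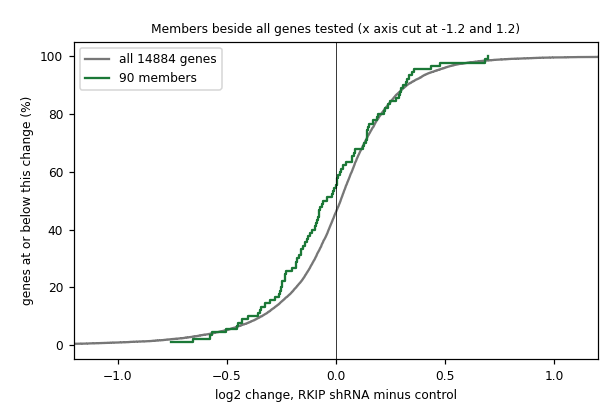
Cumulative share of genes (y axis, %) at or below each log2 change of RKIP shRNA minus control (x axis), for the 90 members (green) and all 14884 genes tested (grey). The green curve crosses 50% at -0.05 and the grey curve at 0.02, and no member lies beyond 1 in either direction.

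Calls near the threshold were lost when 1 array was left out. Of the 23 called members, 13 were called in all 6 fits that left out 1 array, of which 4 had risen and 9 had fallen. This is 14.4% of members, beside 11.3% of all genes that held a call in the same way. The split of all genes by direction was not counted for this, so no lean is read from 4 and 9. The count of members that rose was 8 without control replicate 1, 4 without control replicate 2, 5 without control replicate 3, 5 without RKIP shRNA replicate 1, 5 without RKIP shRNA replicate 2 and 6 without RKIP shRNA replicate 3. The count that fell stayed between 9 and 10. The 13 were VPS33A, VPS25, RAB5IF and SNX11 among those that rose and SNX30, RAB11FIP2, VPS13C, RAB3IP, VPS13A, STX10, VPS8, SNX3 and VPS45 among those that fell. No called member changed sign in any alternative. RAB11FIP4, VPS35 and VPS53 also lost their calls with quantile normalisation (adjusted p = 0.067, 0.054 and 0.065 by limma), and RAB11FIP4, STX6 and STX8 with median centring (adjusted p = 0.059, 0.066 and 0.053). SNX8 lost its call with a trended and robust prior, at the threshold.

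**Figure D2:**
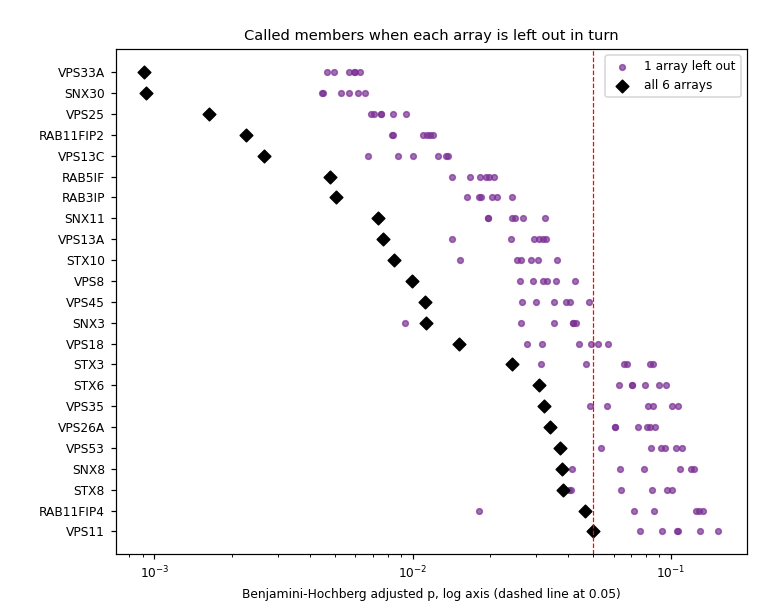
Benjamini-Hochberg adjusted p (log axis) of each of the 23 called members with all 6 arrays (black diamonds) and with 1 array left out (purple points, 6 per gene). All 6 points of VPS33A lie between 0.0047 and 0.0063, whereas all 6 of VPS11 lie between 0.076 and 0.15, beyond the dashed line at 0.05.

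Promoter windows were read from RefSeq (GRCh38.p14) for 67 of the 90 members. They were searched for the E-box core CACGTG and for TCACGTGA, a longer form of the kind bound by the lysosomal regulator TFEB and its relatives; both motifs are palindromes, so each match counts for both strands, and every TCACGTGA holds the core. The core was found in 14 of 84 member windows (16.7%), which run from 250 bases before the start to 50 after it, beside 7.26% of all 35116 windows and 8.57% of those of tested protein-coding genes. The longer TCACGTGA was found in 6 of the 84 (7.14%), beside 0.98% and 1.42%. Those 6 windows belong to VPS11, STX6, STX4, VPS26C and RAB3GAP2. Overlapping windows of VPS11 hold the same TCACGTGA, so that site is counted more than once. Overlaps between windows were not removed from any of these shares. VPS11 rose, STX6 fell and the other 3 did not pass. The match is a description of letters in a window and does not show binding.

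The 250 bases before the start are shown for VPS11 and STX6, the called members with the longer motif, and for VPS25 and SNX3, the called members with the largest rise and the largest fall among those whose window overlaps no annotated gene. Capitals mark CACGTG or TCACGTGA. The windows are chr11:119067568-119067817 on the + strand, chr1:181022871-181023120 on the - strand, chr17:42773199-42773448 on the + strand and chr6:108261041-108261290 on the - strand, in the order listed.
VPS11: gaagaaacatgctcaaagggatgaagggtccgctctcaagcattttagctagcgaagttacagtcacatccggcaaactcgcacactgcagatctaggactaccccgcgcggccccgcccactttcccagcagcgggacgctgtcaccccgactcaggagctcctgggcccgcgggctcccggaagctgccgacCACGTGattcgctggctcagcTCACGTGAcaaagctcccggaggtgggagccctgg
STX6: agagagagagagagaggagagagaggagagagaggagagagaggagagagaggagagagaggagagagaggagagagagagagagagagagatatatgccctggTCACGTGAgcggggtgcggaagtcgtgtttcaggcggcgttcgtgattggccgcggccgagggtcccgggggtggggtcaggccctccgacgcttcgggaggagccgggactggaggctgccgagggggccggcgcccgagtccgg
VPS25: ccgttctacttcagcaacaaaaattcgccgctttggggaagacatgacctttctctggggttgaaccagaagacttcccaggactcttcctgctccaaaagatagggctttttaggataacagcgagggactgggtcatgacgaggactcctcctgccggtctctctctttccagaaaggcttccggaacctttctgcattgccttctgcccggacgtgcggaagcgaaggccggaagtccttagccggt
SNX3: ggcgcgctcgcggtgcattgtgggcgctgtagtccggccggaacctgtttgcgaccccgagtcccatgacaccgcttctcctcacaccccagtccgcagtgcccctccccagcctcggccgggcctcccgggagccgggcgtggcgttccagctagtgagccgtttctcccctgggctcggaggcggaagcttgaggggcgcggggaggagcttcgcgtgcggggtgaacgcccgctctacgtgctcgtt
Counted from the first base of the core to the start, VPS11 held it at -56 and again at -34, the latter within TCACGTGA, and STX6 held it at -145, also within TCACGTGA. The windows of VPS25 and SNX3 held neither. The VPS11 window overlaps a non-coding transcript on the annotation.

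Among the RAB regulators and effectors, 1 of 10 rose and 3 fell (40.0% called, beside 20.2% of all genes; median change -0.20, beside 0.02). With so few genes in the list, nothing particular to it is read from this share. The gene that rose, RAB5IF, is listed by its name, and its known role given below is not that of a RAB regulator. RAB11FIP2, an effector that links RAB11 recycling endosomes to myosin V, stood at 8.93, 8.87 and 8.86 in control and at 8.34, 8.22 and 8.37 in RKIP shRNA arrays. The groups lay well apart, and the gene fell by 0.58 (SE 0.07, adjusted p = 0.00227), a 1.49-fold difference. RAB11FIP4, another RAB11-binding protein, stood at 5.58, 5.25 and 5.21 in control and at 4.59, 4.65 and 5.09 in RKIP shRNA arrays. It fell by 0.57 (SE 0.16, adjusted p = 0.0464) with a wide spread in both groups, and was called in only 1 of the 6 fits with an array left out, the one without RKIP shRNA replicate 3. The 3 other RAB11-binding members did not pass: RAB11FIP1, RAB11FIP3 and RAB11FIP5 had changes of 0.17, 0.15 and 0.01, the last changing sign under other settings.

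RAB3IP encodes Rabin8, the exchange factor that loads RAB8 with GTP during ciliary and polarised transport. Its probe was dim, at 4.09, 3.99 and 3.97 in control and 3.56, 3.61 and 3.59 in RKIP shRNA arrays. The groups did not overlap and it fell by 0.43 (SE 0.07, adjusted p = 0.00506). RAB5IF, whose product is known as a small protein of the endoplasmic reticulum that partners the translocon factor TMCO1, moved the other way. It stood at 8.15, 8.25 and 8.24 in control and at 8.61, 8.77 and 8.70 in RKIP shRNA arrays, a rise of 0.48 (SE 0.07, adjusted p = 0.00477).

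RAB3GAP1 and RAB3GAP2 form one complex that acts as a GTPase-activating protein for RAB3 and as an exchange factor for RAB18. They were the uncalled RAB members with the largest changes, at -0.23 (SE 0.07, adjusted p = 0.065) and -0.25 (SE 0.09, adjusted p = 0.101). RAB3GAP1 ranged from 8.76 to 8.87 in control and from 8.49 to 8.62 in RKIP shRNA arrays. RAB3GAP2 stood at 9.01, 9.16 and 9.18 against 8.85, 8.74 and 9.00. Both were lower in every RKIP shRNA array, and both passed with quantile normalisation and with a trended and robust prior.

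Of the sorting nexins, 2 of 28 rose and 2 fell (14.3% called, beside 20.2% of all genes; median change 0.00). The count that rose was 2 without control replicate 3 and 1 without any other single array. SNX30 had the largest change of all 90 members. It is a BAR-domain nexin that partners SNX4 in recycling and autophagy. It stood at 7.97, 8.05 and 8.04 in control and at 7.30, 7.32 and 7.16 in RKIP shRNA arrays, with no overlap. It fell by 0.76 (SE 0.07, 95% interval -0.93 to -0.59, adjusted p = 0.000926), a 1.69-fold difference. SNX3, a small nexin that brings retromer to its cargo on early endosomes, stood at 8.18, 8.15 and 8.11 in control and at 7.63, 7.48 and 7.82 in RKIP shRNA arrays. It fell by 0.50 (SE 0.10, adjusted p = 0.0113), and its RKIP shRNA arrays were more spread than its control arrays.

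SNX11, a nexin made of little more than a phosphoinositide-binding PX domain, stood at 7.40, 7.54 and 7.58 in control and at 7.98, 7.90 and 7.94 in RKIP shRNA arrays. It rose by 0.43 (SE 0.07, adjusted p = 0.00733), with the arrays of both groups close together. SNX8, a BAR-domain nexin of endosome-to-Golgi transport, stood at 5.31, 5.28 and 5.46 in control and at 5.70, 5.63 and 5.59 in RKIP shRNA arrays. It rose by 0.29 (SE 0.08, adjusted p = 0.0379) and lost its call in 5 of the 6 fits with an array left out, keeping it only without control replicate 3.

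The BAR nexins that pair with retromer did not pass. SNX5 stood at 9.50, 9.52 and 9.55 in control and at 9.54, 9.49 and 9.51 in RKIP shRNA arrays, a change of -0.01 with a 95% interval from -0.16 to 0.13, whose sign changed under other settings. SNX2 stood at 8.40, 8.01 and 8.13 against 7.85, 7.73 and 7.98, and its change was -0.32 (SE 0.12, adjusted p = 0.104). Every RKIP shRNA array of SNX2 lay below every control array, but the control arrays themselves differed by more than the gap. SNX18, a nexin of endocytosis and autophagy, had a change of 0.31 (SE 0.13, adjusted p = 0.148) with overlapping groups. None of the 3 FERM-class nexins and neither of the RGS-class nexins SNX13 and SNX19 passed at an adjusted p under 0.05.

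**Figure D3:**
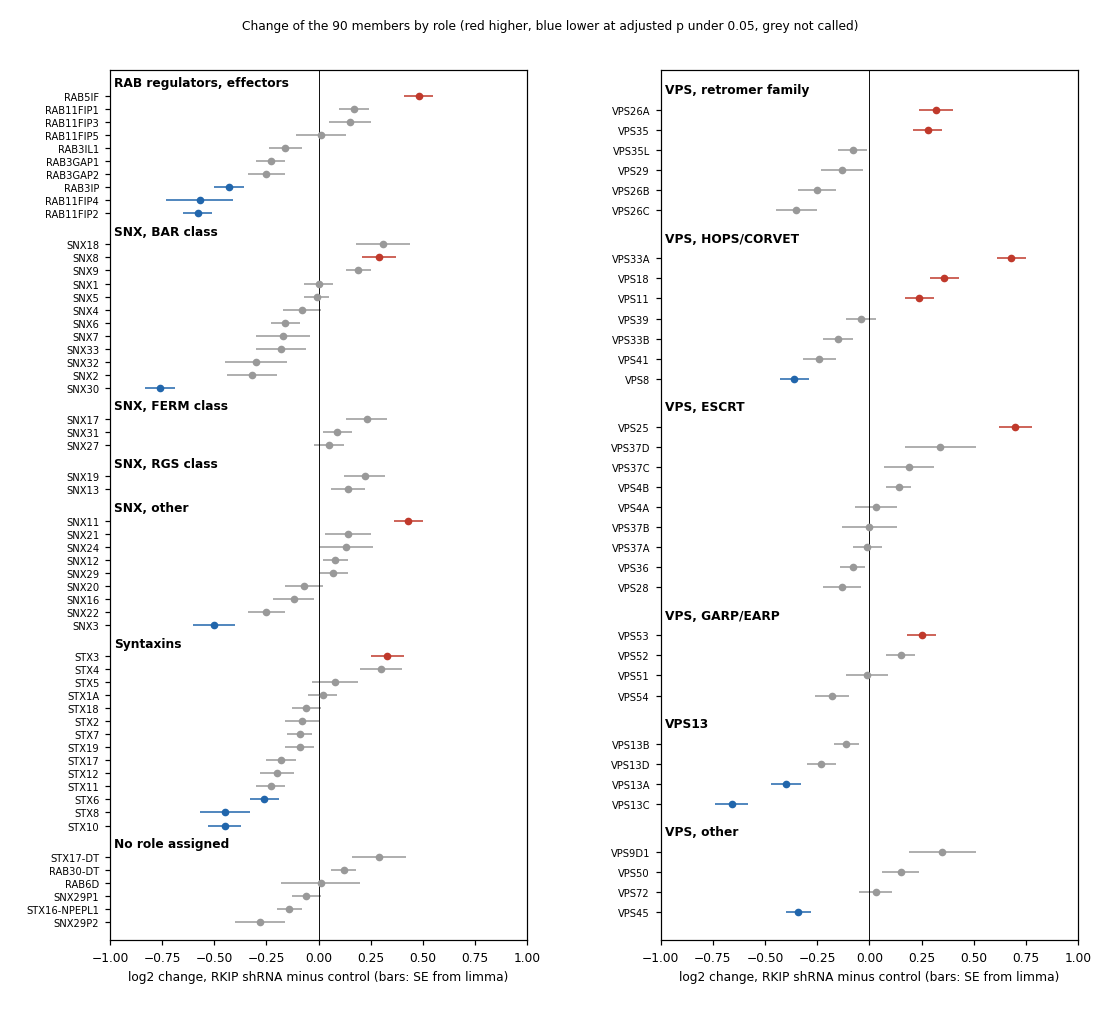
Log2 change of RKIP shRNA minus control (x axis) with its standard error from limma for each of the 90 members, ordered within roles, red for genes called higher, blue for genes called lower and grey for genes not called. Points at or beyond 0.5 in size are VPS25 and VPS33A on the higher side and SNX30, VPS13C, RAB11FIP2, RAB11FIP4 and SNX3 on the lower side.

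Of the 34 VPS genes, the largest of the families, 7 rose and 4 fell (32.4% called, beside 20.2% of all genes). The count that rose was 4 without control replicate 1, 2 without control replicate 2 or control replicate 3, and 3 without any 1 of the RKIP shRNA arrays, while 4 to 5 fell. In the HOPS and CORVET tethers, 3 of 7 measured genes of the list rose and 1 fell, beside 10.0% and 10.2% of all genes, with the paralogue VPS33B counted in the list. VPS33A, the SM protein of both tethers that guides SNARE assembly, stood at 6.75, 6.77 and 6.76 in control and at 7.41, 7.41 and 7.51 in RKIP shRNA arrays. The control arrays were almost identical and the gene rose by 0.68 (SE 0.07, 95% interval 0.53 to 0.84, adjusted p = 0.000913), a 1.61-fold difference. VPS18, also a subunit of both tethers, stood at 6.92, 6.88 and 6.90 against 7.37, 7.19 and 7.21 and rose by 0.36 (SE 0.07, adjusted p = 0.0151). It was no longer called without control replicate 2 or without control replicate 3.

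VPS11 is a further subunit shared by both tethers, and its promoter window held the core motif at 2 places. It stood at 7.11, 7.17 and 7.02 in control and at 7.34, 7.32 and 7.35 in RKIP shRNA arrays. It rose by 0.24 (SE 0.07, adjusted p = 0.0498), at the threshold, and lost its call in all 6 fits with an array left out. VPS8, which belongs to CORVET and not to HOPS, went the other way, from 6.72, 6.67 and 6.78 to 6.38, 6.32 and 6.39. It fell by 0.36 (SE 0.07, adjusted p = 0.00997), and its groups did not overlap. The subunits particular to HOPS did not pass, with VPS39 at -0.04 (95% interval -0.20 to 0.12, positive in 1 alternative) and VPS41 at -0.24 (SE 0.08, adjusted p = 0.0763). VPS41 was lower in every RKIP shRNA array, and it passed with quantile normalisation and with a trended and robust prior.

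VPS33B is a paralogue of VPS33A that works outside HOPS. It ranged from 7.40 to 7.50 in control and from 7.24 to 7.35 in RKIP shRNA arrays, a change of -0.15 that did not pass (adjusted p = 0.196). Within each array, VPS33A minus VPS33B was -0.73, -0.63 and -0.74 in control and 0.06, 0.17 and 0.17 in RKIP shRNA cells. This difference of log2 values shifted by 0.83 (SE 0.05, from the spread of the differences within each group and not from limma). Pairs of related members were set against each other after their values had been seen, so these shifts are given as descriptions only. This one largely restates the rise of VPS33A.

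**Figure D4:**
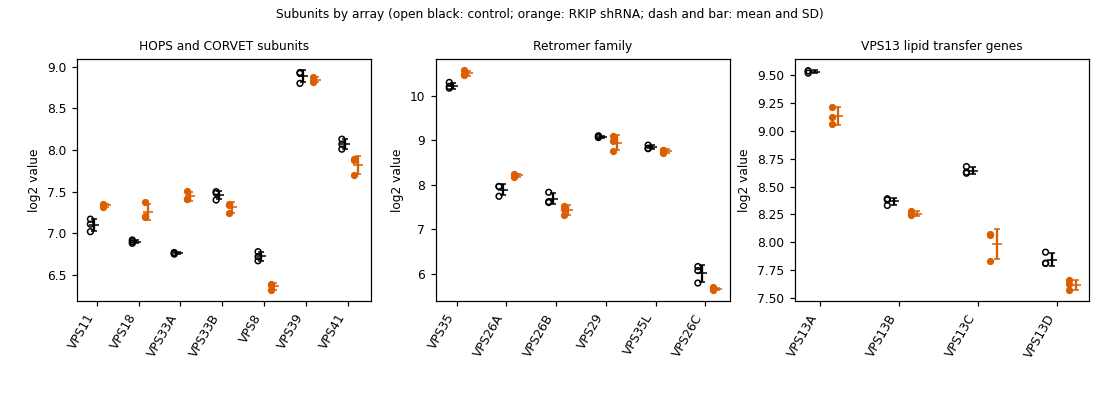
Log2 values (y axis) of HOPS and CORVET subunits, the retromer family and the VPS13 genes in each control array (open black) and RKIP shRNA array (orange), with the mean and SD of 3 arrays beside the points. VPS33A moves from 6.76 to 7.44 while VPS8 moves from 6.72 to 6.36, and all VPS13 genes have lower RKIP shRNA values; levels of different genes come from different probes and are not comparable.

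In the retromer family, 2 of 6 genes rose and the other 4 were not called by limma (33.3% called, beside 20.2% of all genes). VPS35, the scaffold of retromer, stood at 10.30, 10.21 and 10.17 in control and at 10.48, 10.46 and 10.57 in RKIP shRNA arrays, and rose by 0.28 (SE 0.07, adjusted p = 0.0324). VPS26A, an arm of the complex that contacts cargo and SNX3, stood at 7.74, 7.96 and 7.96 against 8.18, 8.22 and 8.24 and rose by 0.32 (SE 0.08, adjusted p = 0.0341). With an array left out, VPS35 was called only without control replicate 1 and VPS26A in none of the 6 fits.

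VPS26B, the paralogue that replaces VPS26A in a separate retromer, was lower in every RKIP shRNA array, at 7.62, 7.60 and 7.83 against 7.31, 7.52 and 7.46. Its change of -0.25 did not pass (SE 0.09, adjusted p = 0.113). Within each array VPS26A minus VPS26B was 0.12, 0.37 and 0.13 in control and 0.87, 0.71 and 0.77 in RKIP shRNA cells. The shift was 0.58 (SE 0.09, again not from limma). VPS29, the metal-fold subunit of retromer, stood at 9.10, 9.08 and 9.06 against 8.98, 8.76 and 9.10 and did not pass (change -0.13, adjusted p = 0.418). VPS26C and VPS35L belong to retriever, a related recycling complex. VPS26C had a change of -0.35 (SE 0.10, adjusted p = 0.0565), just outside the threshold, and VPS35L one of -0.08.

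ESCRT genes were mostly uncalled, with 1 of 9 higher (11.1% called, beside 20.2% of all genes). This was VPS25, a subunit of ESCRT-II, which stood at 8.88, 9.04 and 9.06 in control and at 9.76, 9.67 and 9.64 in RKIP shRNA arrays. It rose by 0.70 (SE 0.08, 95% interval 0.51 to 0.88, adjusted p = 0.00163), a 1.62-fold difference and the largest rise among the 90 members. VPS36, its partner in ESCRT-II, had a change of -0.08 with a 95% interval from -0.24 to 0.07. The other ESCRT members, VPS28, the VPS37 genes and the VPS4 ATPases, had changes between -0.13 and 0.34 and did not pass.

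The VPS13 genes encode long bridge-like proteins that carry lipids between membranes, and all 4 were lower in every RKIP shRNA array, as were 18.1% of all genes. VPS13C, which acts at contacts of the endoplasmic reticulum with late endosomes and lysosomes, stood at 8.68, 8.63 and 8.62 in control and at 8.06, 7.83 and 8.07 in RKIP shRNA arrays. It fell by 0.66 (SE 0.08, adjusted p = 0.00267), a 1.58-fold difference. VPS13A, known for its loss in chorea-acanthocytosis, stood at 9.54, 9.52 and 9.54 against 9.13, 9.06 and 9.22 and fell by 0.40 (SE 0.07, adjusted p = 0.00767). VPS13D and VPS13B had changes of -0.23 (adjusted p = 0.0583) and -0.11 (adjusted p = 0.289). VPS13D passed with quantile normalisation, with a trended and robust prior and with dim genes left out. The median of the 4 genes was -0.31, beside 0.02 over all genes tested.

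In the GARP complex 1 of 4 genes rose (25.0% called, beside 20.2% of all genes). VPS53 stood at 7.85, 7.82 and 7.83 in control and at 8.07, 8.15 and 8.03 in RKIP shRNA arrays, a rise of 0.25 (SE 0.07, adjusted p = 0.0371) that lost its call in all 6 fits with an array left out. Its partners VPS51, VPS52 and VPS54 had changes of -0.01, 0.15 and -0.18 and did not pass, and the sign for VPS51 changed under other settings. VPS45, an SM protein of endosomal fusion whose loss causes congenital neutropenia, stood at 8.67, 8.75 and 8.69 against 8.38, 8.39 and 8.31. It fell by 0.34 (SE 0.06, adjusted p = 0.0111) with tight groups. VPS9D1 had a change of 0.35 (SE 0.16, adjusted p = 0.18) with overlapping groups. VPS72, which carries the name but is known as a chromatin protein that binds the histone variant H2A.Z, had a change of 0.03, with no settled sign.

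Among the 16 STX rows, 1 rose and 3 fell (25.0% called, beside 20.2% of all genes; median change -0.09). The count that fell was 1 with median centring, without control replicate 3 and without any 1 of the RKIP shRNA arrays. The call of the gene that rose, STX3, was lost in 4 of the 6 fits with an array left out. STX10 and STX6 are related SNAREs of the trans-Golgi network and endosomes. STX10 stood at 9.63, 9.46 and 9.47 in control and at 9.01, 9.15 and 9.03 in RKIP shRNA arrays and fell by 0.45 (SE 0.08, adjusted p = 0.0085). STX6 stood at 8.46, 8.37 and 8.44 against 8.20, 8.16 and 8.13 and fell by 0.26 (SE 0.07, adjusted p = 0.0308). The groups did not overlap for either gene, but STX6 lost its call in all 6 fits with an array left out.

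STX8, a SNARE of late endosomes, stood at 8.56, 8.13 and 8.19 in control and at 7.84, 7.87 and 7.82 in RKIP shRNA arrays. It fell by 0.45 (SE 0.12, adjusted p = 0.0382), and control replicate 1 stood above the other control arrays. It was called without control replicate 1 or 2, and in no other fit with an array left out. STX3, a SNARE of the plasma membrane used in granule release by leukocytes, stood at 7.30, 7.27 and 7.16 against 7.62, 7.61 and 7.48. It rose by 0.33 (SE 0.08, adjusted p = 0.0242), and was called only without control replicate 1 or RKIP shRNA replicate 3 when an array was left out. STX4, a plasma membrane SNARE of most cells, had a change of 0.30 (SE 0.10, adjusted p = 0.0884) and was higher in every RKIP shRNA array. STX11, whose loss causes familial haemophagocytic lymphohistiocytosis, had a change of -0.23 (SE 0.07, adjusted p = 0.0741). The non-coding STX17-DT had a change of 0.29 from dim values and did not pass.

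**Figure D5:**
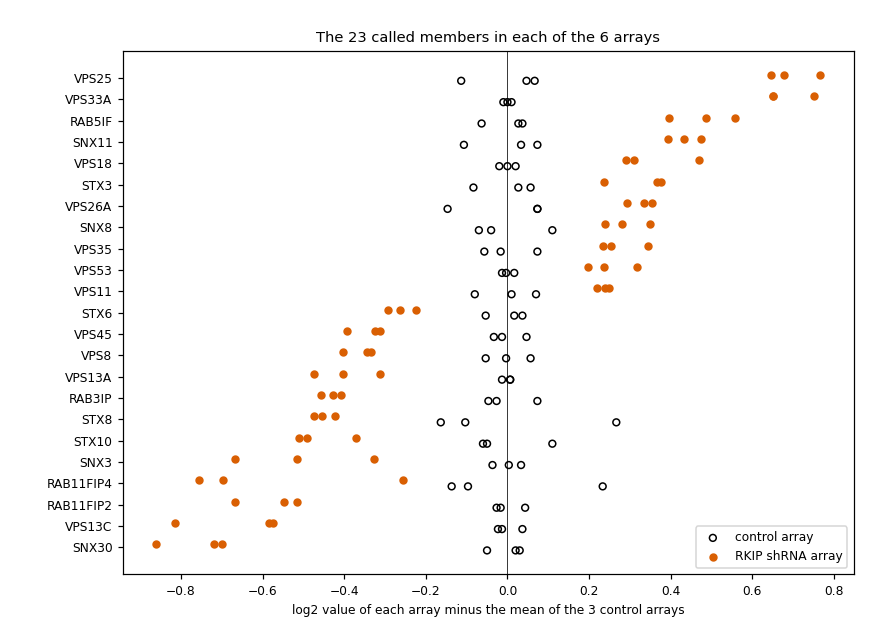
Log2 value of each array minus the mean of the 3 control arrays (x axis) for the 23 called members, with control arrays as open circles and RKIP shRNA arrays as orange points. The groups do not overlap for any of the 23, and the control arrays of STX8 and RAB11FIP4 are the most spread.

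Of the 90 members, 80 had a mean at or above the median of all rows. The other 10, dim in both groups, were RAB3IP, RAB6D, SNX7, SNX19, SNX21, SNX24, SNX31, SNX32, STX19 and STX17-DT. Of these RAB3IP was called. SNX29P1 and SNX29P2 are pseudogene copies that share sequence with SNX29, and STX16-NPEPL1 is a read-through of neighbouring genes, so their signals cannot be assigned with certainty. None of these 3 rows passed.

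Trafficking genes outside the name families were taken from 5 lists, with 109 genes measured. Of these 13 rose and 17 fell (27.5%, beside 20.2% of all genes), with a median change of -0.01. In the RAB cycle list, 4 of 28 rose and 7 fell (39.3% called, beside 20.2% of all genes). Both RAB GTPase-activating proteins of one subfamily fell, RABGAP1L by 0.66 (SE 0.08, adjusted p = 0.00222) and RABGAP1 by 0.42 (SE 0.09, adjusted p = 0.0145), as did DENND1C, a RAB35 exchange factor, by 0.36 (SE 0.06, adjusted p = 0.00875). RABGAP1 lost its call without control replicate 3 and without RKIP shRNA replicate 1.

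In the list of RAB effectors and tethers, 2 of 33 rose and 7 fell (27.3% called, beside 20.2% of all genes). BICD1, a dynein adaptor for RAB6 carriers, fell by 0.79 (SE 0.07, adjusted p = 0.000688) at its kept probe. It has 2 probes, and their mean fell by 0.42 (adjusted p = 0.0095). The other probe therefore changed less than the kept one, and whether it fell at all is not shown here. The fall of BICD1 thus rests on the kept probe. SYTL2, an effector of RAB27, fell by 0.46 (SE 0.08, adjusted p = 0.00628). COG5, a subunit of the Golgi tether COG, fell by 0.33 (SE 0.07, adjusted p = 0.0138) but lost its call without the same arrays. Of the 25 other SNAREs and SNARE regulators, 3 rose and 1 fell (16.0% called, beside 20.2% of all genes). VAMP4, a SNARE that pairs with STX6 at the trans-Golgi network, stood at 8.20, 7.81 and 7.99 in control and at 6.98, 6.93 and 7.05 in RKIP shRNA arrays. It fell by 1.01 (SE 0.11, adjusted p = 0.0013), a 2.02-fold difference that is larger than that of any of the 90 members. YKT6, a lipid-anchored SNARE, rose by 0.90 (SE 0.09, adjusted p = 0.000926), and VAMP8, a SNARE of late endosomes and granules, by 0.42 (SE 0.07, adjusted p = 0.00553).

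Among 18 ESCRT and WASH partners, 3 rose and 2 fell (27.8% called, beside 20.2% of all genes). The paralogues CHMP1A and CHMP1B, both ESCRT-III subunits, moved in opposite directions, CHMP1A with a rise of 0.72 (SE 0.08, adjusted p = 0.00171) and CHMP1B with a fall of 0.62 (SE 0.07, adjusted p = 0.00127). CHMP2A, a further ESCRT-III subunit, rose by 0.41 (SE 0.08, adjusted p = 0.0135). Of 5 coat genes measured, SAR1A, the GTPase that starts COPII coats, rose by 0.43 (SE 0.08, adjusted p = 0.00808).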

How the data were processed

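RNA of 6 THP-1 samples, 3 per group, was hybridised to arrays after labelling of 250 ng of total RNA, per the labels. The authors deposited log2 values, a scale read from their range of 0.72 to 14.0; how they were summarised, background-corrected and normalised is not given in the sources used here. Of 53617 rows, 16098 had exactly 1 gene symbol in the array annotation, 0 had several and 37519 were unnamed. The probe with the highest mean over 6 arrays was kept for each of 14884 genes, which mattered for 3 of the 90 members.

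RKIP shRNA minus control was fitted over all genes with lmFit and eBayes of limma 3.58.1 (R 4.3.3), with 7.01 total degrees of freedom; p-values are Benjamini-Hochberg adjusted over all genes. The fit was tested on simulated data. Role lists were described by counts and medians, with no set test. The members, lists and alternatives were chosen with earlier results of these data known. Genes were named by rule: PEBP1, every called member, the 2 uncalled members with the largest change and the brightest member of each family, retromer core genes, RAB5A, RAB5B, RAB5C and RAB7A (not analysed here), and up to 3 called genes of each outside list. VPS26B, VPS26C, VPS35L, VPS33B, VPS39, VPS41, VPS36, VPS13B, VPS13D, VPS51, VPS52, VPS54, VPS72, STX11, SNX6, RAB11FIP1, RAB11FIP3 and RAB11FIP5 were added as partners after their values were seen. Replicate numbers were not used to pair the arrays in the main fit, and the labels state no pairing. No array date or batch is in the labels. Figures were drawn with matplotlib 3.10.9.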

Additional observations from a re-analysis of the deposited data

How the results depend on the processing

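With the replicate number as a block, 6 members were higher and 9 lower (40.0% higher). Over all genes 1033 were higher and 1109 lower (48.2% higher). Same-numbered arrays had correlations of deviations between -0.02 and 0.02, so the values show no pairing by number. Whether arrays were prepared in pairs cannot be read from these correlations. With a trended and robust prior, 13 members were higher and 21 lower (38.2% higher). Over all genes 1953 were higher and 1916 lower (50.5% higher). Whether the members differ from all genes in these splits was not tested. Members that gained a call there were RAB3GAP1, RAB3GAP2, SNX2, SNX6, SNX9, STX4, STX12, VPS4B, VPS13D, VPS26B, VPS26C and VPS41. Leaving out dim genes added RAB3GAP1, SNX9, STX4, STX11, VPS13D, VPS26C and VPS41. With quantile normalisation, median centring, dim genes left out or the mean of a gene's probes, counts stayed within 1.5 times of 11 and 12. Median centring gave 1795 higher and 1229 lower over all genes (59.4% higher, beside 49.7%) and 12 higher and 9 lower members; the median change of all genes moved from 0.02 to 0.07. Leaving out 1 array gave 4 to 8 members higher and 9 to 10 lower, and over all genes 963 to 1212 higher and 1018 to 1270 lower. PEBP1 stayed between -1.54 and -1.41 and was called throughout. No called gene that is named here changed direction. VPS11 also lost its call with the mean of probes (change 0.24). It has 1 probe, so its own values were the same and only those of other genes differed in that fit. Leaving out dim genes tests fewer genes, and for changes under the remaining settings the cause was not tested. With 3 arrays per group and no detection calls, dim genes and changes under about 0.24, the smallest called, are poorly resolved.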

Other observations

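The members VPS37B, VPS51 and VPS52 had a second probe each. For VPS51 the second probe had a change of 0.27, from 5.56 ± 0.08 to 5.84 ± 0.07 (SD, n = 3 each), whereas the kept probe had -0.01, from 6.27 ± 0.12 to 6.26 ± 0.14. The second probes of VPS37B and VPS52 had changes of -0.08 and 0.08, beside 0.00 and 0.15 for the kept ones.

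Among related pairs, SNX5 minus SNX6 was -0.05, 0.00 and -0.03 in control and 0.18, 0.16 and 0.01 in RKIP shRNA arrays, a shift of 0.14 (SE 0.06). VPS13A minus VPS13C shifted by 0.25 (SE 0.05), from 0.89 ± 0.03 to 1.15 ± 0.08 (SD, n = 3 each). In all, 10 pairs were set against each other, and the groups did not overlap for 7 of them. The overlapping ones were VPS4A minus VPS4B, SNX9 minus SNX18 and STX7 minus STX12, with shifts of -0.11, -0.12 and 0.11. An exact permutation over arrays gave p = 0.1 for each pair without overlap. That is the smallest value possible with 3 arrays per group, so no conclusion is drawn from it. The pairs were picked after their values had been seen, and the shifts are descriptions. The standard errors of the shifts come from the spread within each group and not from limma.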
